A study of Arabidopsis thaliana with 2 samples.

Results

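The loci described here are 169 nuclear loci of Arabidopsis thaliana whose transcripts were at least 3-fold more abundant in replicate CC2 than in replicate CC1 of one and the same cell type, the central cell. Both replicates came from wild-type plants of the accession Landsberg erecta, from flowers fixed 2 days after emasculation, and each is a single pool of sections of about 450 central cells cut out with laser-assisted microdissection. No treatment separated them, so the comparison asks how far the pools differed, and for which genes. Hits are weighted read alignments summed over a locus. Values of single loci are given as hits, whereas every fold and log2 difference was computed from hits per 1000000 listed hits (HPM). The loci had to be listed with at least 500 hits in CC2 and 50 in CC1, and 4684 of the 17319 listed nuclear loci met these minimums. Of those, 3.61% passed the 3-fold limit, and without any minimum 7.93% of the 13362 loci listed in both did. The LURE1 peptide genes, CCA1 and HSC70-1 were left out by name. The loci were selected on the hits and on their fold between the replicates, so every fold below is a description and no test was run on it. With 1 library on each side there is also no replicate check of any fold.

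The central cell is the large cell of the embryo sac from which, once fertilized, the endosperm develops. It lies next to the egg cell and the synergids, the cells that attract the pollen tube, and the embryo sac is enclosed by the integuments of the ovule. Plant reproductive cells are known for small secreted proteins rich in cysteine. One such family is annotated as related to ECA1 gametogenesis proteins, and it has branches with the domains DUF784 and DUF1278. The DUF1278 branch holds the EC1 peptides, which the egg cell releases to activate sperm. DD11 and DD18 of the DUF784 branch are known as synergid genes that depend on MYB98, a transcription factor of the synergids that binds GTAAC sites.

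The DUF784 branch was the largest group of related loci found among the 169. Of the 24 members from the ECA1-related family, 20 carry DUF784, 3 are annotated pseudogenes and 1, AT2G24205, is a protein-coding relative without the domain term. Sequences upstream of these loci were searched for GTAACNT, on both strands and from 250 bases before to 50 bases after the annotated gene start. This motif was added after the values had been seen. It occurred in 12 of the 20 DUF784 members, against 12.9% of 27443 promoters of protein-coding genes and 13.4% of the loci that met the hit minimums. None of the other motifs searched lies within its letters. Matches from 8 of these loci are shown 5′ to 3′ on the strand of the motif (TAIR10.1, RefSeq), with the 7 bases of the motif in capitals, because they let the copies of the family be compared.
AT5G42567, chr5:17018525-17018551 (+): aaatcacaaaGTAACTTaagaaaaaac
AT5G42955, chr5:17232366-17232392 (+): aaatcacaacGTAACTTctcaaaaaaa
AT4G13263, chr4:7710844-7710870 (-): tctacaagttGTAACTTacaaggtgtg
AT5G35405, chr5:13604926-13604952 (+): tctacaagttGTAACTTacaaggtgtg
AT4G13263, chr4:7710928-7710954 (+): tatgaagtcaGTAACATaaactattaa
AT4G13261, chr4:7708467-7708493 (+): tatgaagtcaGTAACATaaactattaa
AT1G47470, chr1:17415320-17415346 (+): ttacaaagttGTAACTTtaaagataac
AT1G47470, chr1:17415244-17415270 (-): gttgaagttaGTAACATataactatta
DD18, chr1:17104249-17104275 (+): gttaaagataGTAACATacaattatta
DD11, chr1:19737212-19737238 (-): aatcaagtaaGTAACATatgtaaacat

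The windows of AT4G13263 and AT5G35405 are identical around the first motif although the loci lie on different chromosomes, and AT4G13261 and AT4G13263 share the window around the other one. Copies of a promoter are not independent, so the count of 12 takes in related sequences more than once. The motif was about as frequent in the DUF784 loci that were listed in both replicates without being members (7 of 14) and occurred in 2 of 13 DUF1278 loci. Outside the ECA1-related family, 11 of the 145 members held it (7.59%). A match is a string of letters and says nothing on whether MYB98 bound there. MYB98 itself was listed in neither replicate.

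The DUF784 loci were abundant as well as different. AT5G42567 had 11162 hits in CC2 and 2407 in CC1, a 4.76-fold difference. AT4G13263 had 7180 hits in CC2 and 2008 in CC1, or 3.67-fold. AT4G08025 had 6050 hits in CC2 and 1251 in CC1, or 4.97-fold. These are the 3 members with most HPM in CC2 after THI2.1, and only AT5G42955 and AT1G47470 of the DUF784 members had larger folds than 6. AT5G42955 had 4562 hits in CC2 and 711 in CC1, or 6.59-fold, and AT1G47470 had 3308 hits in CC2 and 521 in CC1, or 6.53-fold. The counting interval of the last fold (95%, Clopper-Pearson on the split of the hits) ran from 5.94 to 7.16. Such intervals cover counting error only, since amplified reads are not independent molecules.

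The known synergid genes of the branch were in the same range. DD11 had 3241 hits in CC2 and 911 in CC1, or 3.65-fold, and DD18 had 1731 hits in CC2 and 509 in CC1, or 3.49-fold. AT2G21655, with 4846 hits in CC2 and 1549 in CC1, had the smallest fold of the DUF784 members with over 1000 hits in both, at 3.21, and it missed the limit when summed with its similar copy AT3G29797. Further abundant members were AT5G35405 with 4047 hits in CC2 and 1232 in CC1, AT4G13261 with 3949 in CC2 and 896 in CC1, and AT3G30383 with 3192 in CC2 and 878 in CC1. AT5G34882 had 2038 hits in CC2 and 598 in CC1, and AT1G45223 had 1911 in CC2 and 574 in CC1. These are near the middle of the branch, and AT5G42957 and AT2G21727 were above it. AT5G42957 had 1995 hits in CC2 and 348 in CC1, and AT2G21727 had 1799 in CC2 and 357 in CC1. Across the 20 DUF784 members the folds ran from 3.01 to 6.59 with a median log2 of 1.97 and an SD of 0.33 between loci. The lower end of this range is set by the rule.

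**Figure D1:**
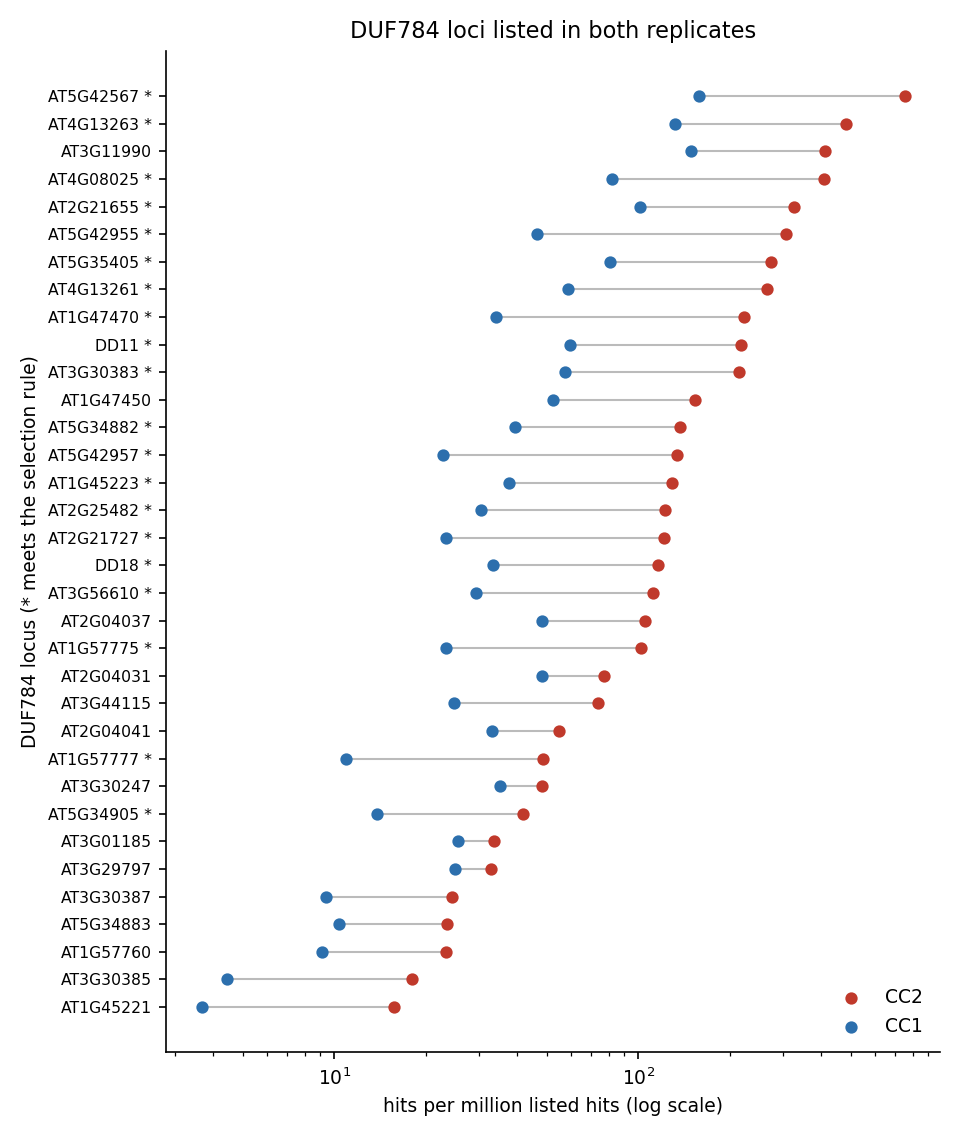
HPM in CC2 (red) and CC1 (blue) for the 34 DUF784 loci listed in both replicates, on a log scale, ordered by their level in CC2. The CC2 point lies right of the CC1 point at every locus. Asterisks mark the 20 members, for which the rule requires this.

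The loci of the branch that missed the rule lay on the same side. All 34 DUF784 loci listed in both replicates were higher in CC2, the 20 members among them by rule. Of all nuclear loci listed in both, 46.5% were higher in CC2. Copies that share reads are not independent, so the 34 are not separate observations. The 14 that are no members had log2 differences of 0.39 and above, with AT1G45221 highest at 233 hits in CC2 and 55.8 in CC1. AT3G01185 and AT3G29797 were the lowest, with 498 and 486 hits in CC2 against 389 and 381 in CC1. Another 3 were listed in CC2 only, with 41.4 to 214 hits. Summed over the branch, there were 84081 hits in CC2 and 23681 in CC1, or 5659 HPM in CC2 and 1552 HPM in CC1, a 3.65-fold difference. With the ECA1-related pseudogenes, which share transcript sequence with several of the copies, the sums differed 3.69-fold. Most copies did share reads. Only 4 of the 24 members of the family had whole numbers of hits in both replicates, and these are DD11, AT2G25482 with 1817 hits in CC2 and 462 in CC1, AT3G56610 with 1655 in CC2 and 445 in CC1, and AT2G24205 with 3702 in CC2 and 715 in CC1. Their folds were 3.65 to 5.32. As members they had passed the 3-fold limit by rule, so they cannot show what shared reads do to the folds.

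Other branches of the ECA1-related family did not follow. Of the 13 DUF1278 loci listed in both, 9 were lower in CC2, none is a member, and the median log2 was -0.47. EC1.1 had 9008 hits in CC2 and 12844 in CC1, and EC1.5 had 2044 in CC2 and 3985 in CC1. The loci AT3G01322 to AT3G01331, a cluster of abundant relatives outside both branches, contained AT3G01331 with 33551 hits in CC2 and 33592 in CC1, a log2 difference of 0.04 in HPM, and AT3G01326 with 25930 in CC2 and 30493 in CC1. Defensin-like genes, the other large group of cysteine-rich peptides, had a median log2 of -0.06 over 149 loci. They provided 2 members, 2.25% of the 89 that met the hit minimums, near the 3.61% of all loci that met them. The annotated ECA1-related pseudogenes went with the DUF784 loci. AT5G42565, AT1G45211 and AT3G30384 are members, with 3262, 639 and 853 hits in CC2 against 625, 151 and 237 in CC1, and hits on such copies may have come from the intact ones.

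**Figure D2:**
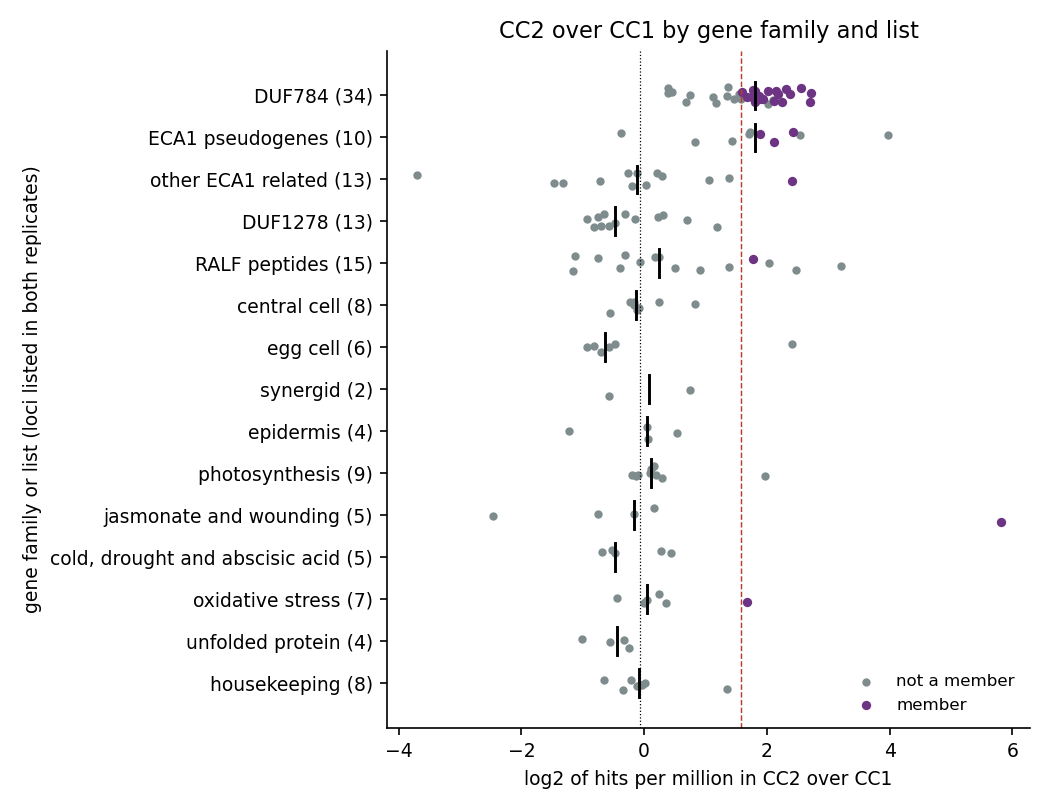
Log2 of HPM in CC2 over CC1 for each locus listed in both replicates, with the number of loci in brackets. Rows are branches of the ECA1-related family, RALF peptides and some of the gene lists. Bars are medians, the dotted line is the median of all loci (-0.07) and the dashed line the 3-fold limit. The medians of the DUF784 loci and the pseudogenes stand right of those of the remaining rows drawn. Lists not drawn include heat shock, low oxygen, and touch and early wound genes (medians 1.04, 0.90 and 0.34). Ovule and integument genes (-1.98) and salicylate defence genes (-0.24) are not drawn either.

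Proteins of the 20 DUF784 members had up to 173 residues with 6 to 8 cysteines, 8 of them sharing the shortest length found, and 19 of the 20 genes have a single exon. Of the members, 19 matched another in protein searches, with a median identity of 92.2% to the closest and a range of 35.7% to 97.3%. The loci with sequence relatives nearby all came from this family. Counting up to 5 positions along the annotated gene order, 13 members had another member of their own family within reach, in 6 clusters, while none of the mirrored set did. The mirrored set holds the 148 loci that met the same rule with the replicates exchanged, 2.96% of 5005. Of all loci that met the hit minimums, 208 had such a neighbour, 4.44% against 7.69% of the members.

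The cluster of DD18 spans 37.4 kb (chr1:17104351-17141771). Its 6 family loci listed in both replicates had log2 differences of 1.43 to 2.54, and 3 other listed loci in or beside it had -1.20 to 0.65. AT1G57775 and AT1G57777, with 96.5% identical proteins, had 1513 and 723 hits in CC2 against 357 and 167 in CC1. AT5G42955 and AT5G42957 (chr5:17231842-17234132) had log2 differences of 2.72 and 2.56, with 97.3% identical proteins. The gene before them, AT5G42950, had 1724 hits in CC2 and 1800 in CC1. Over the 6 neighbourhoods, 17 loci outside the family were listed in both and had a median log2 of -0.02, but they ranged from -4.01 to 3.76, the extremes both beside AT1G57775. Immediate neighbours of all members, 150 loci without members or family loci, had a median log2 of -0.09, close to that of all loci listed in both (-0.07).

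**Figure D3:**
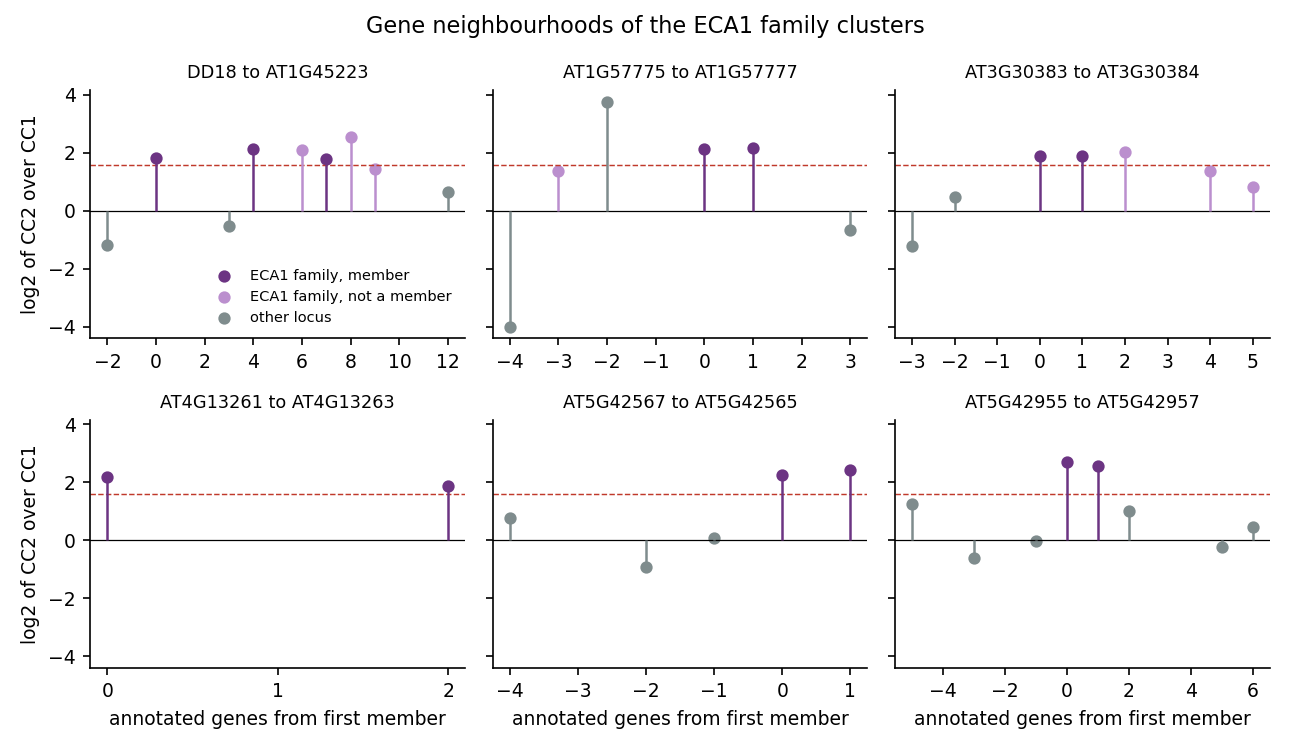
Log2 of HPM in CC2 over CC1 (vertical axis) against the position in annotated genes from the first member (horizontal axis) for the 6 clusters of the ECA1-related family. Family loci are above 0 throughout, and loci of other families, grey, lie on both sides.

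Depth set the DUF784 loci apart from most other members. The members had a median of 719 hits in CC2 and 187 in CC1, and 96 of the 169 had fewer than 200 hits in CC1. Just 18 had at least 500 hits in both replicates, where 0.452% of 3979 loci passed the limit, and 15 of these 18 belong to the ECA1-related family. The other 3 are GILT, AT1G01305 and AT2G02510, the last of which missed the limit with a log2 of 1.08 when summed with a gene it overlaps. GILT, a thiol reductase of the lysosomal kind, had 4733 hits in CC2 and 1061 in CC1. AT1G01305, a protein of unknown function with 4383 hits in CC2 and 775 in CC1, also has 1 exon. In the opposite direction 0.0754% of the same loci passed. For 135 members the lower bound of the counting interval was still at or above 3.

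**Figure D4:**
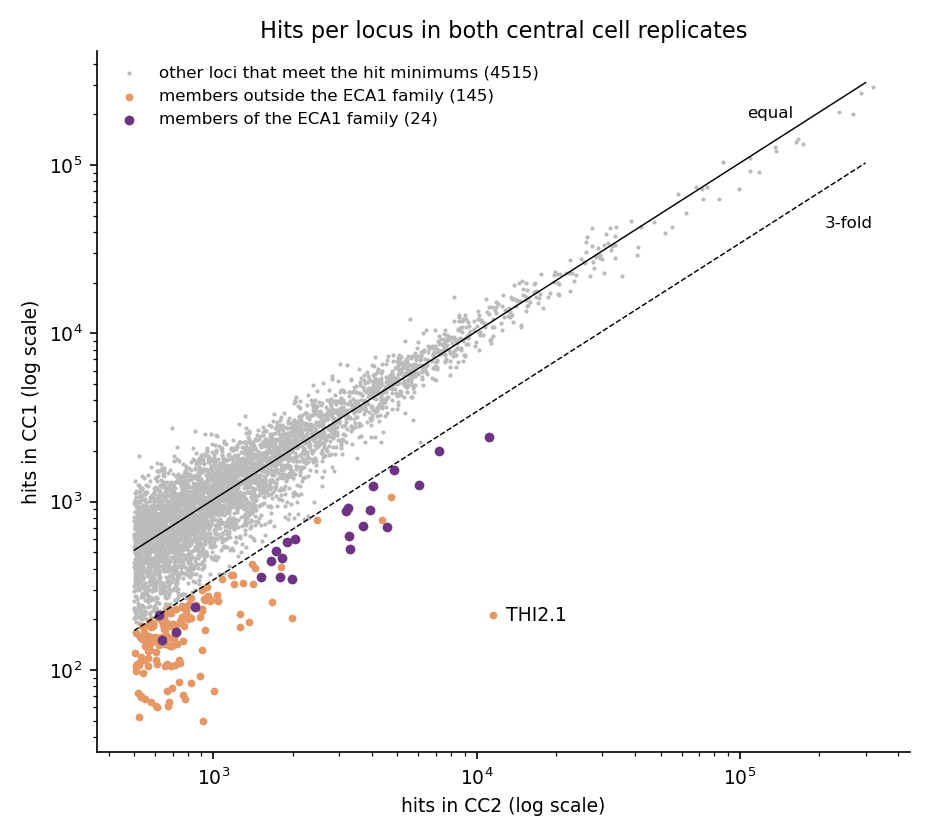
Hits in CC2 (horizontal) and CC1 (vertical) for the loci that met the minimums, both on log scales, with lines for equal HPM and for a 3-fold difference. Most members lie near the lower left end, the 24 of the ECA1-related family (purple) reach 11162 hits in CC2, and THI2.1 stands alone at 11568 hits in CC2 and 212 in CC1.

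The largest single difference was that of THI2.1 (AT1G72260), a 3-exon gene (chr1:27198356-27199468) for a thionin, that is a small antimicrobial peptide, known to be induced by jasmonate and expressed in flowers. It had 11568 hits in CC2 and 212 in CC1, or 779 HPM in CC2 and 13.9 HPM in CC1. The fold was 56.0 with a counting interval of 48.9 to 64.5. It was the only gene with the thionin domain that was listed in both replicates. The other jasmonate and wounding genes on a list of 12 went in both directions. JAZ1, a repressor of the response, and AOC1, an enzyme of jasmonate synthesis, were listed in CC2 only, at 57 and 25 hits. Such listings were more frequent in CC2 altogether, with 2944 nuclear loci listed in CC2 only and 1013 in CC1 only. VSP1 had 876 hits in CC2 and 1008 in CC1, VSP2 had 323 in CC2 and 296 in CC1, and LOX2 had 71 in CC2 and 123 in CC1. AOS, OPR3 and PDF1.2a were listed in neither replicate, and MYC2, the central transcription factor of the response, had 21 hits in CC2 and 119 in CC1.

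Stress lists gave 1 more member. It is CSD2, the chloroplast copper/zinc superoxide dismutase, with 682 hits in CC2 and 219 in CC1. Of the 7 oxidative stress genes the other 6 had log2 differences of -0.45 to 0.35, among them GSTU19 with 12658 hits in CC2 and 12531 in CC1. Cold, drought and abscisic acid genes had a median log2 of -0.47 over 5 loci, and the unfolded protein genes -0.44 over 4. Of 7 heat shock genes 5 were on the side of CC2. HSP101 had 517 hits in CC2 and 225 in CC1, HSP70 had 40 in CC2 and 20 in CC1, and HSP90.1, HSP17.4 and HSP21 were listed in CC2 only, with 56 to 82 hits. HSP18.2 was lower in CC2, with 395 hits in CC2 and 538 in CC1, and HSFA2 was listed in neither. On the list of 9 touch and early wound genes none was lower in CC2. RRTF1, a transcription factor of redox responses, had 132 hits in CC2 and 23.4 in CC1, or 5.80-fold, TCH2 had 274 in CC2 and 223 in CC1, and ZAT12 had 130 in CC2 and 115 in CC1. TCH3 and WRKY40 were listed in CC2 only, at 16 and 9 hits, and the other 4 in neither. The low oxygen list was split. SUS1 had 340 hits in CC2 and 53 in CC1 and fell short of the hit minimum, and HRE1 had 73 in CC2 and 18 in CC1. ADH1 had 5447 hits in CC2 and 6720 in CC1, PDC1 had 2028 in CC2 and 2897 in CC1, and LBD41 and HB1 were listed in CC1 only, at 94 and 36 hits. The lists do not hold every stress gene. Members on none of them, higher in CC2 by rule, include COR413-PM1, annotated as cold regulated, and DHAR1, a dehydroascorbate reductase. COR413-PM1 had 643 hits in CC2 and 184 in CC1, and DHAR1 had 667 in CC2 and 109 in CC1. The part of stress during handling in the differences of the members was not tested.

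The marker lists for the central cell, the egg cell, the synergids and the tissues of the ovule held no member, but many of their genes could not be members. None of the ovule tissue genes reached 500 hits in CC2, and of the synergid list only NTA met the minimums. Of all loci that met the minimums, 3.61% are members. Of 9 central cell genes 8 were listed in both, from FWA at 4578 hits in CC2 and 6919 in CC1 to AGL62 at 1771 in CC2 and 1029 in CC1; FIE was listed in neither. NTA, a synergid receptor-like gene of the MLO family, had 691 hits in CC2 and 1053 in CC1. LRE had 13 hits in CC2 and 8 in CC1. The synergid list of 3 genes thus held 1 gene that was lower in CC2, 1 near the listing limit in both and MYB98 in neither, and it summed to 47.4 HPM in CC2 and 69.5 HPM in CC1. The egg cell list, with 6 of 7 genes listed in both, summed to 909 HPM in CC2 and 1356 HPM in CC1. Nearly all of this came from the 5 EC1 genes, each lower in CC2. RKD2, a transcription factor of the egg cell, had 93 hits in CC2 and 18 in CC1, or 5.31-fold, and fell below both hit minimums. Of the loci left out by name, LURE1.2, which encodes a pollen tube attractant of the synergids, had 3409 hits in CC2 and 760 in CC1, a fold of 4.61 that lies within the range of the DUF784 members. Among 17 loci listed in both whose annotation text names the synergid, 13 were higher in CC2, against 46.5% of all nuclear loci listed in both. For text that names the egg cell 7 of 23 were higher, and for the central cell 28 of 48, with no member in either. Of the synergid loci 9 met the hit minimums and 5 of these are members, higher by rule, against 3.61% of all loci that met the minimums. Among the 5, 4 are from the ECA1-related family. The fifth is AT3G57850, a protein of 90 residues and unknown function, with 1005 hits in CC2 and 74.8 in CC1. Its log2 difference was 3.79, and 2.39 when summed with AT3G57840 and AT3G57854, which have similar transcripts. AT3G57840 is also among the 17 loci, so these are not all independent. The most abundant locus of these 17, AT2G20595, had 31464 hits in CC2 and 34385 in CC1. In pooled cells, more cells of a type and more RNA per cell cannot be told apart, and the part of adhering synergid material in these values was not tested.

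Ovule tissue genes were low and mixed. Of 11, 4 were listed in CC2 only, with STK at 172 hits as the highest, and 2 in both, with SHP1 at 59 hits in CC2 and 228 in CC1 and BAN at 17 in CC2 and 72 in CC1. Their summed level was 26.5 HPM in CC2 and 19.7 HPM in CC1. Of 6 epidermis genes, PDF1 and KCS10 were listed in CC2 only, at 100 and 141 hits, whereas LTP1 had 434 hits in CC2 and 432 in CC1. CER1 was lower in CC2, with 66 hits in CC2 and 158 in CC1. ATML1 had 2381 hits in CC2 and 2351 in CC1, and PDF2 had 2610 in CC2 and 1840 in CC1. The 4 epidermis genes listed in both had a median log2 of 0.05. The 4 vasculature genes, SUC2 among them, were listed in neither replicate. The 9 photosynthesis genes had a median log2 of 0.11, and RBCS1B was the exception with 287 hits in CC2 and 75.3 in CC1. The 8 housekeeping genes had a median of -0.09. Among them ACT2 had 597 hits in CC2 and 240 in CC1.

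The other members with the largest folds had few hits in CC1. AT1G07020, of unknown function, had 782 hits in CC2 and 67.2 in CC1, or 12.0-fold. AT1G76270, an O-fucosyltransferase family gene, had 767 in CC2 and 70.6 in CC1, and AT4G10750 had 610 in CC2 and 60.2 in CC1. Each of these 3 loci overlaps another listed locus. Summed with it, AT1G07020 missed the limit with a log2 difference of 0.999, while AT1G76270 had 2.19 and AT4G10750 had 1.81. AT3G04820, a pseudouridine synthase family gene, had 521 hits in CC2 and 52.2 in CC1, and summed with the overlapping NEK2 the log2 difference was 2.04. AT3G07565, annotated as a histone H2A deubiquitinase, had 823 in CC2 and 84 in CC1, and AT1G74370, a RING protein gene, had 664 in CC2 and 75 in CC1. Both missed the limit when summed with the locus they overlap, at log2 differences of 0.56 and 1.52. AT2G19870, of the SpoU methyltransferase family, had 530 hits in CC2 and 70 in CC1. AT1G60970, of the SNARE-like superfamily, had 604 hits in CC2 and 61 in CC1. TIM44-2, a subunit of the mitochondrial import machinery, had 580 in CC2 and 64 in CC1. RH20, an RNA helicase, had 738 hits in CC2 and 85 in CC1, and AT5G23430 had 551 in CC2 and 67 in CC1. SAP130b, a splicing factor subunit, had 530 hits in CC2 and 69.1 in CC1, and summed with its similar copy AT3G55200 the log2 difference was 0.53. The first 20 by fold contain no ECA1-related locus.

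The remaining members spread over many functions. Roles were assigned to 60 of them after their values had been seen, so the groups carry no count of their own as a result. Beside THI2.1, the secretory pathway and cell wall group held the thaumatin-like AT2G28790 with 911 hits in CC2 and 50 in CC1, at 18.7-fold the second largest difference of all. BGLU18, a beta glucosidase of endoplasmic reticulum bodies, had 1991 hits in CC2 and 203 in CC1, and the defensin-like AT2G43530 had 891 in CC2 and 92 in CC1. LTP3, a lipid transfer protein, had 1046 hits in CC2 and 258 in CC1. Its relative LTP1, given above, was near 0 on the log2 scale. RALFL5, a RALF signalling peptide, had 1408 hits in CC2 and 425 in CC1, while over all 15 RALF loci listed in both 9 were higher and 6 lower in CC2.

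Metabolic members included AGT, the photorespiratory aminotransferase of peroxisomes, with 695 hits in CC2 and 78 in CC1. SQS1, squalene synthase, had 714 hits in CC2 and 107 in CC1. TPS11 of the trehalose phosphate synthase family had 1261 hits in CC2 and 179 in CC1, and TPS1, which makes trehalose 6-phosphate, had 520 in CC2 and 110 in CC1. Summed with the overlapping RHM1, TPS1 missed the limit with a log2 difference of 1.36. The chloroplast and photorespiration group held 11 loci, AGT among them, with folds of 3.13 to 9.15. The highest after AGT was DAC at 5.21. In autophagy, APG8A, one of the ATG8 proteins that coat the autophagosome, had 680 hits in CC2 and 64 in CC1, and ATG12A had 937 in CC2 and 310 in CC1, or a log2 difference of 1.41 when summed with its copy APG12B. MPK17, a MAP kinase, had 1674 hits in CC2 and 252 in CC1.

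The group of transcription, chromatin and RNA genes was the largest with 18 loci and folds of 3.17 to 8.92. RDM1 of RNA-directed DNA methylation had 1444 hits in CC2 and 405 in CC1. JMJ14, a histone demethylase, had 668 hits in CC2 and 190 in CC1, but a log2 difference of 0.21 when summed with the overlapping GSNAP (466 hits in CC2 and 820 in CC1). HEC3, a bHLH factor, had 548 hits in CC2 and 139 in CC1. ATIM, the Timeless protein homologue of chromosome replication, had 671 hits in CC2 and 61 in CC1 and stands outside these groups. AT2G32220, of the ribosomal L27e protein family, had 547 hits in CC2 and 167 in CC1, or 3.36-fold, while none of the 269 loci above the minimums whose annotation contains the words ribosomal protein is a member.

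**Figure D5:**
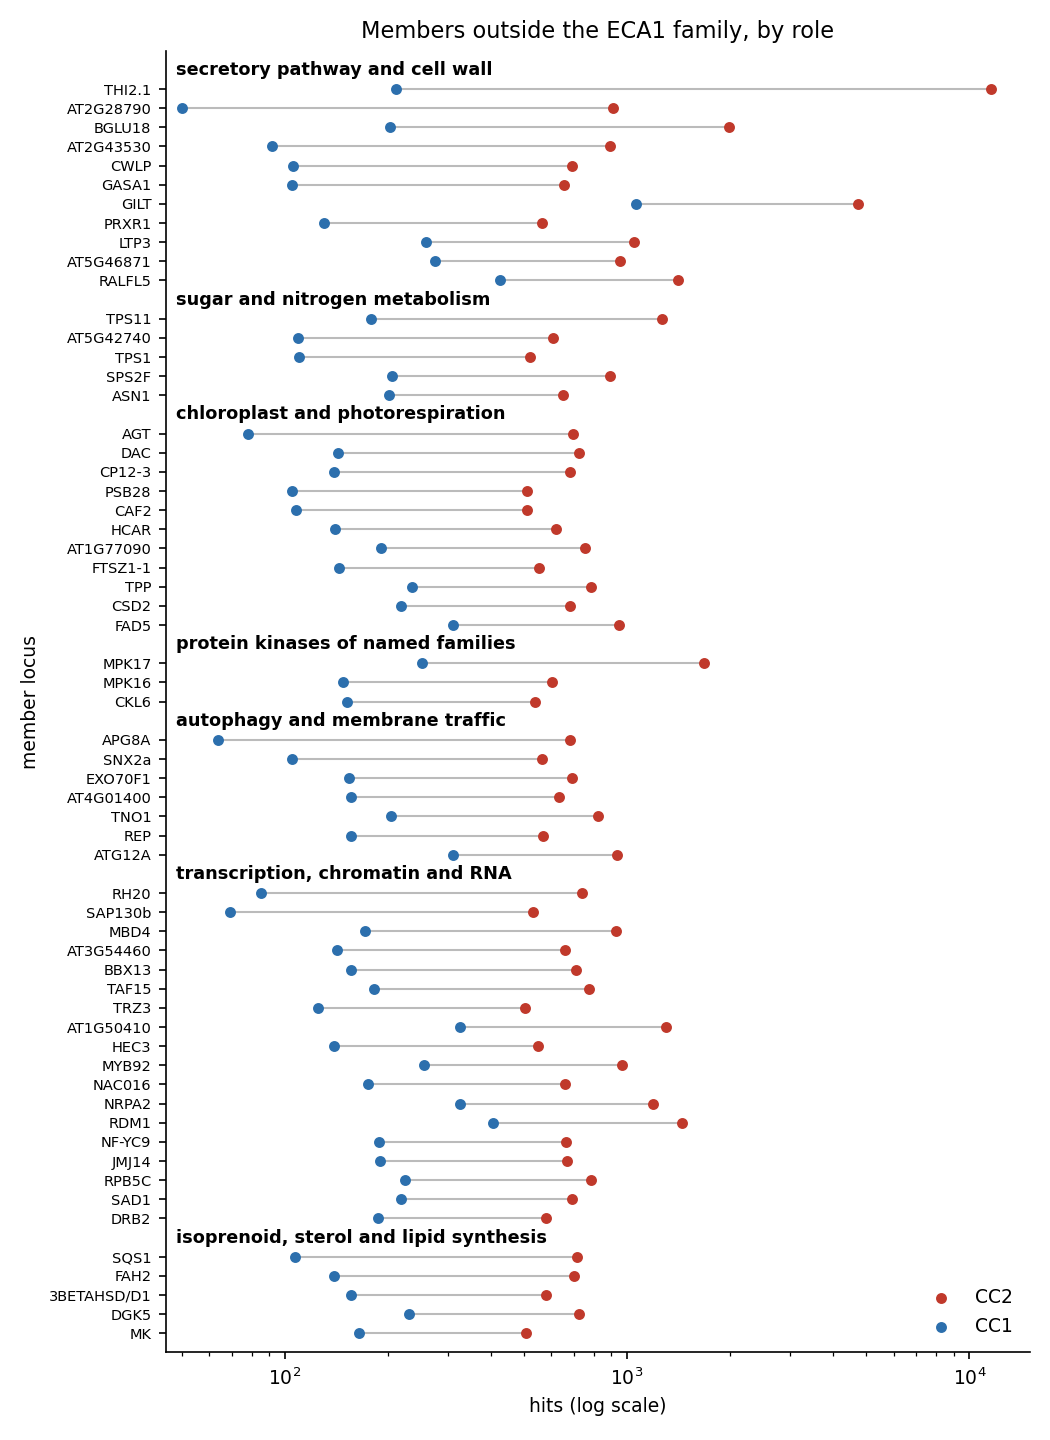
Hits in CC2 (red) and CC1 (blue), on a log scale, for the 60 members outside the ECA1-related family to which a role was given. Every CC2 point lies right of its CC1 point, as the rule requires; THI2.1 and GILT have the most hits in CC2, 11568 and 4733.

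Overlapping genes limit part of these values, because the libraries carry no strand. For 45 members (26.6%) another listed locus overlaps, against 25.5% of all loci that met the minimums and 31.8% of the mirrored set. Hits summed over the overlapping loci stayed at 3-fold or more for 16 of the 45. NRPA2, with 1193 hits in CC2 and 324 in CC1, overlaps LHCB1.3 with 12435 in CC2 and 10454 in CC1, and their sum differed by a log2 of 0.38. CAF2, summed with AT1G23410, turned round to -0.48. None of the ECA1-related members overlaps another listed locus. LpxC2 had 1811 hits in CC2 and 409 in CC1, but its near-identical copies AT1G25098 and AT1G25175 were listed in CC1 only with 606 and 2161 hits, and the sum was lower in CC2 by a log2 of -0.77.

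In structure, members differed from the other loci in exon number and protein type, and less so without the ECA1-related family. The median transcript length was 1548 bases in members and 1601 bases in all loci that met the minimums, and 1703 bases in members against 1608 bases once the ECA1-related family was left out. Single-exon genes made up 23.7% of members and 9.35% of all loci that met the minimums, and without the family 11.7% of members and 8.47% of those loci. Proteins of 30 to 180 residues with at least 6 cysteines were encoded by 27 members, against 4.78% of all loci that met the minimums and 1.35% of the mirrored set. Without the family they made up 4.14% of members and 3.90% of the loci that met the minimums. The mirrored set began with GTE4, which had 63 hits in CC2 and 717 in CC1, followed by AT2G29360 and AT4G23900, and none of its loci belonged to the ECA1-related family. Among 7 other promoter motifs, the core DRE (CCGAC) occurred in 19.5% of members and in 4130 of the 27443 promoters, the G-box (CACGTG) in 8.88% and 7.68%, and ABRE (ACGTGGC) in 1.78% and 4.08%. The shares in members for the evening element (AAAATATCT), the W-box (TTGACC), the GCC-box (GCCGCC) and the heat shock element (GAANNTTC) were 2.96%, 11.8%, 3.55% and 11.8%, against 2.82%, 14.2%, 2.57% and 11.6% of all promoters.

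At the limit itself the loci were continuous. Just inside were ARK2 with 535 hits in CC2 and 183 in CC1 (log2 0.15 when summed with the overlapping EDA10), AT1G69250 with 574 in CC2 and 196 in CC1, and the DUF784 locus AT5G34905 with 620 in CC2 and 212 in CC1. Just outside were the DUF784 loci AT3G44115 with 1093 in CC2 and 377 in CC1 and AT1G47450 with 2278 in CC2 and 798 in CC1.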

How the data were processed

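Messenger RNA of laser-dissected central cells was reverse transcribed with poly(T) primers, amplified and sequenced on the SOLiD platform. The authors corrected the reads, aligned them with TopHat 1.2 to TAIR10 with up to 10 alignments per read, weighted the alignments, and divided ambiguous hits between loci in proportion to unambiguous ones. The authors deposited the resulting estimated counts of hits for each locus, neither normalized nor stranded. The authors listed a locus only with at least 5 hits and a hit within 250 bp of a 3′ end. Amplification gave less cDNA from CC1, with fragments a little shorter than those from CC2, per the authors. Among transcripts assembled without the genome, the authors found fungal ones in CC1 but not in CC2. They read this as some contamination of CC1 and considered an effect on the genome alignments unlikely.

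Listed hits summed to 14857500 in CC2 over 16391 loci and 15257122 in CC1 over 14454 loci. Hits were divided by these totals. Positions, descriptions and sequences came from RefSeq TAIR10.1, whose nuclear chromosomes have the lengths of TAIR10. All 169 members matched it by locus identifier. Families were found by description, InterPro terms and BLAST 2.17.0, and lists were written by hand. The members and lists were chosen with earlier results of these data known. Loci were named from the 20 largest folds, the 15 members with most HPM, members of clusters, families or lists, and 3 loci on each side of the limit, of which 1 is not reported here, and members of families other than the ECA1-related one are named only in part; genes named by role were chosen after their values were seen. Alternatives used edgeR 4.0.16 factors (TMM), median-of-ratios factors, other limits, and sums over related or overlapping loci. The selection code was run on simulated data with counting error alone and with changes planted only in loci above the level of most members. This checks the code and not the folds of the members. Scripts ran in Python 3.11.15 with pandas 2.3.3. No p-value was computed, as there is 1 condition with 1 library on each side of the comparison.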

Additional observations from a re-analysis of the deposited data

How the results depend on the processing

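The count of 169 loci moved little with the scaling: 166 with nuclear loci only, 185 with TMM, 180 with median-of-ratios factors and 164 unscaled. In the same order, the mirrored set of 148 loci became 150, 127, 130 and 168. Which of the 2 sets was larger thus depended on the scaling. The median log2 of the members stayed between 2.02 and 2.13, and that of the DUF784 loci between 1.77 and 1.88. All 34 DUF784 loci were higher in CC2 under each scaling, a direction that the rule had fixed for the members among them. Sums over overlapping loci gave 143, and sums over similar transcripts, added after seeing the data, gave 152. The count was 40 with minimums of 100 and 1000 hits, 1053 without minimum, 406 at 2-fold, 94 at 4-fold, 102 when each locus was summed with its closest paralog, and 18 with at least 500 hits in both (added after seeing the data). Within 1 gene, 8 members had a family neighbour, and within 10 genes 17. The summed level of the members was 13883 HPM in CC2 alone and 3009 HPM in CC1 alone. No paired analysis was possible because there is only 1 group. Depth limits the precision most for the 96 members with under 200 hits in CC1.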
